A study of Mus musculus with 12 samples.

Results

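A set of 39 endothelial genes was followed through 12 RNA sequencing libraries of mouse kidney cortex. Its members are known markers of the cells that line blood vessels, together with endothelial genes for which the effect of obstruction differed between genotypes in these same data. They were therefore chosen on values measured here: the genotype difference in the contralateral kidneys and the interaction of genotype with obstruction are described below without a test, since both contrasts chose the genes. All 39 members were found among the 23183 gene symbols of the files. A filter that asked for at least 1 FPKM (fragments counted on a transcript, divided by its length in kilobases and by the library's depth) in at least 3 libraries left 13243 genes for testing, and 38 members passed it. Vwf (von Willebrand factor) was under 1 FPKM in every library and was not tested. All 38 also passed the filter on the 9 libraries outside the WT contralateral group, so none was tested only because it was high in that group.

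The mice were male C57BL/6N animals of 6 to 7 weeks, either wild type (WT) or Acot12-/-, the latter lacking the enzyme acyl-CoA thioesterase 12 in the whole body through a germline allele made with an RNA-guided nuclease. Every mouse had unilateral ureteral obstruction (UUO), in which the ureter of 1 kidney is closed, and cortex was collected on day 7, from the obstructed kidney (UUO) as well as from the other, contralateral one (CL). This gave 4 groups of 3 libraries: WT CL, WT UUO, Acot12-/- CL and Acot12-/- UUO. The CL kidneys came from operated mice and are not kidneys of untreated mice. All libraries hold RNA of whole cortex, so fewer endothelial cells and less RNA per endothelial cell cannot be told apart.

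Endothelial cells line the renal arteries, the fenestrated tuft of the glomerulus, the peritubular capillaries around the tubules and the veins. They are held together by adherens and tight junctions, receive growth signals through the VEGF and angiopoietin receptors, and keep their identity through transcription factors of the ETS and SOXF families. Peritubular capillaries supply the tubules with oxygen, and their loss is a known feature of fibrotic kidneys.

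The depth term by which the values were divided was read from the steps in the low values. It was 12420000 to 13800000 fragments in the WT CL and 14060000 to 16320000 in the Acot12-/- CL group. It was higher in the UUO libraries, with 21340000 to 23020000 fragments in WT and 18560000 to 21860000 in Acot12-/- kidneys. Whether this term was scaled between libraries is not stated, so it may differ from the number of fragments sequenced. Acot12 itself was between 52.7 and 78.1 FPKM in the WT CL libraries and between 6.80 and 9.15 FPKM in the Acot12-/- CL libraries, and its levels after UUO were 9.98 to 21.2 FPKM in WT and 1.80 to 3.86 FPKM in Acot12-/- kidneys. The genotypes did not overlap within either kidney side, which goes with their labels. Acot12-/- CL replicate 2 stood furthest apart. On the second principal component of all tested genes it lay at -52.3, against 22.2 and 33.0 for replicates 1 and 3 of its group. The libraries of the other groups lay between -8.4 and 6.9, so replicates 1 and 3 were outside that range too, on the opposite side. Results that rest on replicate 2 are given with and without it.

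In the CL kidneys, every member had a lower mean in Acot12-/- than in WT mice. The Acot12-/- CL mean was a median of 41.6% of the WT CL mean over the 39 genes, and 39.6% without Acot12-/- CL replicate 2. In 28 of the 39 it was under 50%. On the log2(FPKM + 1) scale used for all fitted differences, the median of the 38 tested members was -1.01 (-0.98 without replicate 2), while the median over all 13243 genes was 0.01. For 31 of the 38 tested members, and for Vwf, every Acot12-/- CL library lay below every WT CL library. Over all tested genes 9.73% had this pattern. Without replicate 2 the number was 34 of 38, and the share over all genes 21.7%. The 3 Acot12-/- CL libraries were not equally low. Their members' median against the WT CL mean was -1.23, -0.87 and -0.91 on the log2 scale for replicates 1, 2 and 3, and replicate 1 was the lowest library of the group in 23 of 39 genes. After UUO the genotypes stood closer together, with a median Acot12-/- mean of 114% of the WT mean. In 37 of the 39 genes, all but Mmrn2 and Arhgef15, the Acot12-/- CL group had the lowest mean of the 4 groups.

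**Figure D1:**
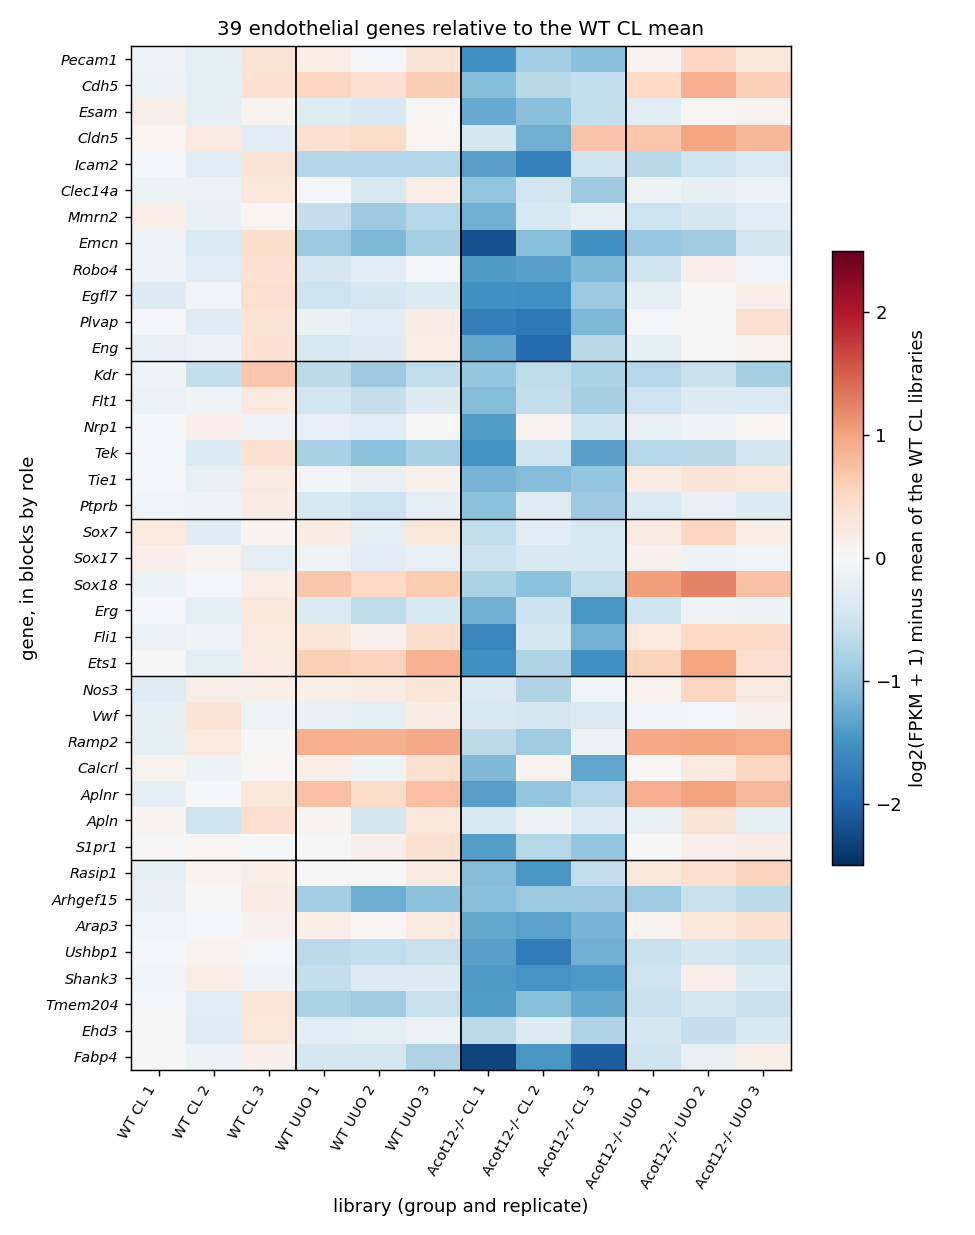
Level of the 39 members (vertical axis, in blocks by role) in the 12 libraries (horizontal axis) as log2(FPKM + 1) minus the mean of the 3 WT CL libraries. The 3 Acot12-/- CL columns are blue for most genes (median -1.23, -0.87 and -0.91). Exceptions include Cldn5 in replicate 3 and Nrp1 and Calcrl in replicate 2.

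Of the genes of the cell surface and of junctions, 11 of 12 were free of overlap between the CL groups. Emcn (endomucin, a sialomucin of capillary and venous endothelium; chr3:137341067-137432185, plus strand, GRCm38) was at 62.9, 52.0 and 91.8 FPKM in WT CL and at 13.9, 31.7 and 22.8 FPKM in Acot12-/- CL. After UUO it was at 34.9, 30.4 and 37.5 FPKM in WT and at 34.5, 35.5 and 48.5 FPKM in Acot12-/- kidneys. WT kidneys thus went down and Acot12-/- kidneys up toward a common range after obstruction, and the UUO groups overlapped. Plvap, which forms the diaphragms of fenestrated capillaries (chr8:71497765-71511752, minus strand), was at 61.2, 51.2 and 80.4 FPKM in WT CL against 18.5, 17.7 and 28.4 FPKM in Acot12-/- CL. It reached 56.0, 51.5 and 71.9 FPKM in WT UUO and 61.7, 63.4 and 83.3 FPKM in Acot12-/- UUO. Only the Acot12-/- CL libraries stood below the rest. Egfl7, a secreted factor of the vessel wall, was at 40.9, 48.7 and 68.0 FPKM in WT CL and at 17.5, 17.2 and 26.6 FPKM in Acot12-/- CL. Eng (endoglin, a coreceptor for TGF-beta) was at 32.9, 34.1 and 49.0 FPKM against 15, 9.28 and 23.2 FPKM. Both showed replicate 3 as the highest library within each CL group.

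The pan-endothelial adhesion genes were lower by about the median of the set. Pecam1 (CD31, which blood leukocytes and platelets also carry) was at 14.7, 13.0 and 19.9 FPKM in WT CL and at 4.74, 8.12 and 7.03 FPKM in Acot12-/- CL. Cdh5 (VE-cadherin, the adhesion molecule of endothelial adherens junctions; chr8:104101625-104144511, plus strand) was at 5.41, 5.03 and 8.04 FPKM against 2.33, 3.37 and 3.58 FPKM. For both genes every Acot12-/- CL library was below every WT CL library. Esam, Icam2, Clec14a, Mmrn2 and Robo4, all membrane or matrix proteins of endothelial contacts, had Acot12-/- CL means of 30.9% to 65.7% of WT CL. Cldn5, the claudin of endothelial tight junctions (chr16:18776847-18778262, plus strand), departed from the others. It was at 9.26, 10.6 and 7.29 FPKM in WT CL and at 6.31, 3.31 and 15.4 FPKM in Acot12-/- CL, so that replicate 3 lay above all WT CL libraries and replicates 1 and 2 below them. Its log2 difference was -0.31 with replicate 2 and 0.14 without it. Cldn5 was the 1 member whose CL difference changed sign when that library was left out.

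Among receptors for vascular growth factors, 5 of 6 did not overlap between the CL groups, and all 6 did not when replicate 2 was left out. Kdr (VEGF receptor 2, the main signalling receptor for VEGF-A; chr5:75932827-75978458, minus strand) was at 3.67, 2.29 and 6.83 FPKM in WT CL and at 1.51, 2.18 and 1.87 FPKM in Acot12-/- CL. Replicate 2 of the WT CL group lay just above replicate 2 of the Acot12-/- CL group. Flt1 (VEGF receptor 1) was at 3.73, 3.88 and 5.18 FPKM against 1.46, 2.47 and 1.95 FPKM. Tek (TIE2, the angiopoietin receptor; chr4:94739289-94874976, plus strand) was at 9.18, 7.34 and 12.7 FPKM against 2.75, 6.43 and 3.13 FPKM, with replicate 2 close to the lowest WT library. Tie1, its orphan partner, was at 7.96, 7.08 and 9.81 FPKM against 3.13, 3.33 and 3.69 FPKM, with little spread inside the Acot12-/- CL group. Ptprb (VE-PTP, a phosphatase that acts on TIE2 and VE-cadherin) had an Acot12-/- CL mean of 52.0% of WT CL. Nrp1 (neuropilin 1, a coreceptor for VEGF and semaphorins that other kidney cells also make) overlapped: it was at 46.9, 53.0 and 45.1 FPKM in WT CL and at 17.8, 50.3 and 33.7 FPKM in Acot12-/- CL, and replicate 2 lay within the WT range. After UUO Tek was at 5.03, 4.21 and 5.0 FPKM in WT UUO and at 5.42, 5.51 and 6.63 FPKM in Acot12-/- UUO.

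The 6 transcription factors were lower in the Acot12-/- CL group by a median log2 difference of -0.93 (-1.01 without replicate 2). Ets1, an ETS factor that lymphocytes also express (chr9:32636221-32757820, plus strand), was at 8.02, 6.56 and 9.42 FPKM in WT CL and at 2.07, 4.28 and 2.12 FPKM in Acot12-/- CL. Fli1, an ETS factor of endothelial and blood cells, was at 5.10, 5.26 and 6.90 FPKM against 1.16, 3.97 and 1.96 FPKM. Erg, the ETS factor most restricted to endothelium, was at 4.54, 3.87 and 5.79 FPKM against 1.47, 2.90 and 1.08 FPKM. In all 3 ETS genes the highest Acot12-/- CL library was replicate 2. The SOXF factors Sox7, Sox17 and Sox18, which act in arterial and lymphatic vessel identity, differed by -0.43, -0.45 and -0.80. Sox18 (chr2:181669836-181671640, minus strand) was at 4.89, 5.25 and 6.14 FPKM in WT CL and at 2.69, 2.16 and 3.24 FPKM in Acot12-/- CL, without overlap. Sox7 was the least deeply covered tested member, with about 8 fragments behind its lowest value, and its CL groups overlapped.

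Genes of vascular tone and peptide signalling had the smallest differences as a group, with a median of -0.67 and 3 of 7 free of overlap. Nos3 (endothelial nitric oxide synthase; chr5:24364810-24384474, plus strand) was at 0.94, 1.66 and 1.66 FPKM in WT CL and at 0.88, 0.43 and 1.28 FPKM in Acot12-/- CL, and the groups overlapped. Vwf was at 0.30, 0.90 and 0.40 FPKM against 0.16, 0.13 and 0.18 FPKM, which rests on about 16 fragments at its lowest. Apln (apelin, a peptide of sprouting endothelium; chrX:48025146-48034853, minus strand) had the smallest fitted difference of all members with all libraries in the fit, -0.30. Without Acot12-/- CL replicate 2 the difference of Cldn5 was smaller in size. Apln overlapped between the groups at 4.32, 2.63 and 5.86 FPKM against 2.86, 3.67 and 2.95 FPKM. Its receptor gene Aplnr differed more, at 3.02, 3.58 and 4.76 FPKM in WT CL and 0.86, 1.42 and 1.90 FPKM in Acot12-/- CL, and did not overlap. The ligand and the receptor were thus not lowered to the same degree, a comparison for which no test was made. Ramp2 and Calcrl form the adrenomedullin receptor that maintains vessel integrity. Ramp2 was at 15.1, 21.4 and 18.1 FPKM against 11, 9.32 and 16.4 FPKM, with replicate 3 inside the WT range. Calcrl was at 5.52, 4.69 and 5.34 FPKM against 1.87, 5.46 and 1.5 FPKM, with replicate 2 inside the WT range. S1pr1, the receptor through which sphingosine 1-phosphate stabilises junctions, was at 4.96, 5.14 and 4.82 FPKM against 1.31, 2.66 and 2.04 FPKM, without overlap.

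The GTPase regulators, scaffolds and the lipid carrier were all free of overlap in the CL kidneys (8 of 8, with and without replicate 2) and had a median log2 difference of -1.25. Fabp4, a fatty acid binding protein of capillary endothelium that fat cells and macrophages also make (chr3:10204088-10208576, minus strand), was the most abundant member and had the largest fitted difference, -1.94 (-2.19 without replicate 2). It was at 279, 258 and 307 FPKM in WT CL and at 55.9, 102 and 66.2 FPKM in Acot12-/- CL. After UUO it was at 210, 207 and 167 FPKM in WT and at 199, 243 and 312 FPKM in Acot12-/- kidneys. All WT libraries fell from the CL to the UUO kidney and all Acot12-/- libraries rose. Shank3, a scaffold protein best known from synapses (chr15:89499623-89560261, plus strand), had the lowest Acot12-/- CL level relative to WT CL, 15.8%. It was at 2.81, 3.5 and 2.77 FPKM in WT CL and at 0.51, 0.44 and 0.48 FPKM in Acot12-/- CL, so that the lowest WT value was far above the highest Acot12-/- value. Ushbp1 (chr8:71384272-71395802, minus strand) was at 6.07, 6.76 and 6.04 FPKM against 1.85, 1.16 and 2.17 FPKM. Arap3, a GTPase-activating protein, was at 4.20, 4.26 and 4.86 FPKM against 1.24, 1.14 and 1.44 FPKM. Rasip1 and Arhgef15, regulators of small GTPase signalling in vessels, and Tmem204 had Acot12-/- CL means of 37.6% to 40.9% of WT CL. Ehd3, an endocytic ATPase of glomerular endothelium, was at 6.21, 4.83 and 7.74 FPKM against 3.55, 4.71 and 3.24 FPKM, a mean of 61.2%, with replicate 2 just under the lowest WT library.

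**Figure D2:**
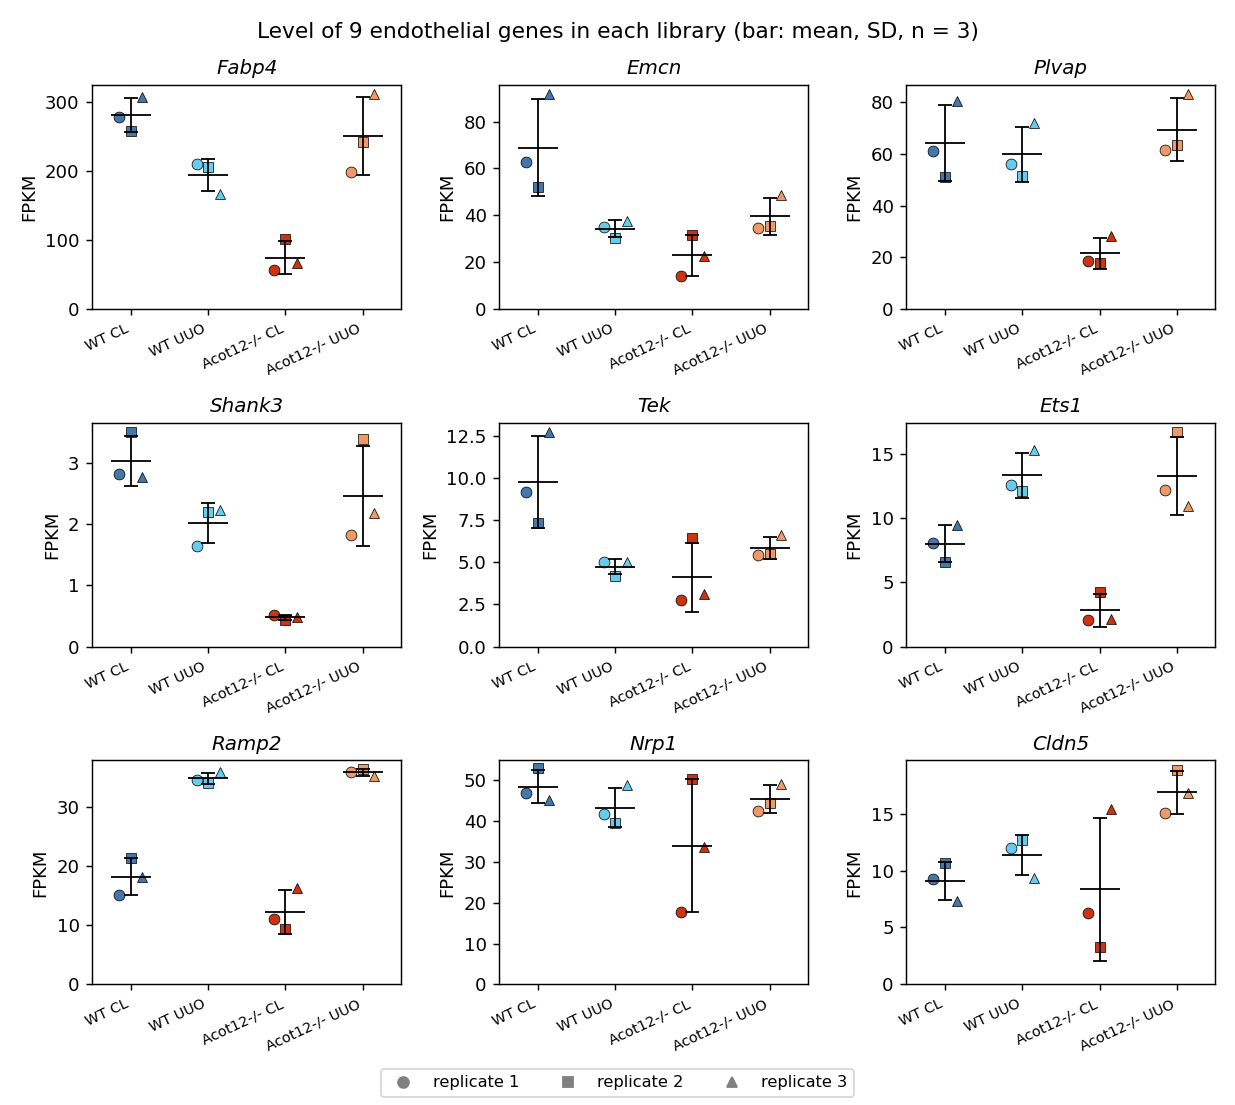
FPKM (vertical axis, from 0) of 9 members in the 4 groups. Symbols are libraries by replicate number, and bars give the mean and SD (n = 3). Fabp4, Emcn, Plvap and Shank3 are low in the Acot12-/- CL group alone or most of all, and Ets1 and Ramp2 are higher after UUO. In that group Nrp1 (replicate 2), Cldn5 (replicate 3) and Ramp2 (replicate 3) reach the WT CL range.

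Promoter sequences are shown for the genes at both ends of this range, to set the members with the largest and the smallest CL difference side by side. RefSeq entries (GRCm38.p6) matched 18 of the 39 members, 2 of them with 3 entries each. Genes were picked from the 16 with a single entry, by the difference with all libraries in the fit. The 3 with the largest difference were Emcn, Ushbp1 and Shank3 and the 2 with the smallest were Apln and Cldn5. The 250 bases before the annotated start are printed 5′ to 3′ on the strand of the gene. Capitals mark AGGAAG or its reverse complement CTTCCT, a form of the ETS factor site, and AACAAT or ATTGTT, a form of the SOX factor site. TAAACA or TGTTTA, a form of the forkhead site, was searched too. The windows are chr3:137340828-137341077, plus strand for Emcn, chr8:71395802-71396051, minus strand for Ushbp1, chr15:89499358-89499607, plus strand for Shank3, chrX:48034854-48035103, minus strand for Apln and chr16:18776597-18776846, plus strand for Cldn5.
Emcn: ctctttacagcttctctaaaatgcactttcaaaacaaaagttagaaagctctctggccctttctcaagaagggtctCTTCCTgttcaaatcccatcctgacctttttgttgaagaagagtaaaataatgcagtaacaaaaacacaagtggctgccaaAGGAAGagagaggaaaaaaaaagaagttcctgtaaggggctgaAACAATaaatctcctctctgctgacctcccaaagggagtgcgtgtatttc
Ushbp1: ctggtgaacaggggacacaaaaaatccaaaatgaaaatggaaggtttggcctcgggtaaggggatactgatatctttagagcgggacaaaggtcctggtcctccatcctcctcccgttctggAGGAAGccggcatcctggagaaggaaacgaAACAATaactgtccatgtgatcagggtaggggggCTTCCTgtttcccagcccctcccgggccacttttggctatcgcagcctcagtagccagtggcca
Shank3: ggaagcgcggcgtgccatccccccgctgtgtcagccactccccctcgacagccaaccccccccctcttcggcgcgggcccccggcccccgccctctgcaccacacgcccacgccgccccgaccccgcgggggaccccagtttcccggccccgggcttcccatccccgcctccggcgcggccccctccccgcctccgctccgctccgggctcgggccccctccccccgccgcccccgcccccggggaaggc
Apln: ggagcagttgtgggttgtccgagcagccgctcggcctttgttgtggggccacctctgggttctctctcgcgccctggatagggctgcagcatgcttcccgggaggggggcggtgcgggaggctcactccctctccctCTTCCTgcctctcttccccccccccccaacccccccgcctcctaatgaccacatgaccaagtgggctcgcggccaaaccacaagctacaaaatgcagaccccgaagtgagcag
Cldn5: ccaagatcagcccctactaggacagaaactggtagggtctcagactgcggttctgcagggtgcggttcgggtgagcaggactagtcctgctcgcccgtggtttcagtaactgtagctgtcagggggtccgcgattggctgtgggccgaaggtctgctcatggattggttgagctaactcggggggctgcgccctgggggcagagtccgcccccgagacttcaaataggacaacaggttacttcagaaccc
Emcn and Ushbp1 each held 2 matches of the ETS letters and 1 of the SOX letters. Apln held 1 ETS match, while Shank3 and Cldn5 held none of the 3 motifs in this window. The Shank3 window was 82.4% GC, against 40.8% for Emcn. Over all members with an entry, 12 of 18 genes had an ETS match in at least 1 window, 5 had a SOX match and 1, Clec14a, had a forkhead match. Among the 27025 symbols with an entry, 32.3% had an ETS match, 10.9% a SOX match and 13.5% a forkhead match. The matches in the printed windows did not overlap each other. A match is a run of letters and was not shown here to be bound.

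The library that stood apart, Acot12-/- CL replicate 2, deviated from its group along the base composition of the transcripts. Over the 38 tested members, its log2 level minus the mean of replicates 1 and 3 ran against transcript GC content with a Spearman coefficient of -0.88. Over 13168 genes with a known GC content the coefficient was -0.76. In the 6 WT and the 3 Acot12-/- UUO libraries it lay between -0.30 and 0.37 over the members. All points of a library share its preparation and depth, so these values are descriptions. Calcrl, Nrp1 and Fli1, of low GC content, were higher in replicate 2 than in replicates 1 and 3 by 1.27, 1.01 and 0.98 on the log2 scale. Cldn5, Eng and Icam2 were lower by comparison, at -1.35, -0.93 and -0.76. The term for fragment length recovered from the values was 170 bases in this library and 205 to 245 bases in the others. The genotype difference of the set was of similar size without that library. Over the 38 tested members the Spearman coefficient of the CL difference with GC content was -0.05 with replicate 2 and 0.30 without it. In the 19 members of lower GC content (37.8% to 52.2%) the median CL difference was -0.84 with replicate 2 and -1.03 without it. In the 19 of higher GC content (52.6% to 63.6%) it was -1.07 and -0.98. With the GC trend of every library removed, the median over the members was -1.0.

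**Figure D3:**
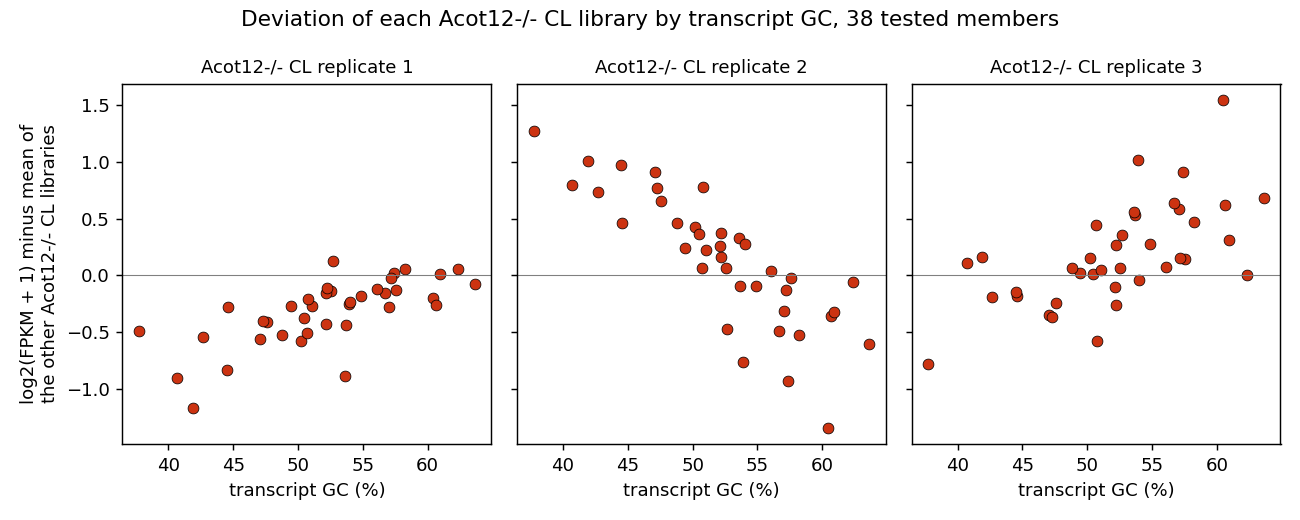
Deviation of each Acot12-/- CL library from the mean of the other libraries of its group (vertical axis, log2(FPKM + 1)) by the GC content of the transcript in percent (horizontal axis), for 38 members. Replicate 2 slopes downward from Calcrl (1.27) to Cldn5 (-1.35), and replicates 1 and 3, whose comparison includes replicate 2, slope upward.

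In this balanced design the effect of obstruction over both genotypes is independent of the contrasts that chose the genes only if the groups have equal spread. Equal spread was not tested, and fits with 1 library left out are not balanced. The effect was tested with limma, with kidney side and genotype as additive terms. The difference this gives is the mean of both genotypes' differences. The members' medians of those were -0.17 in WT and 0.99 in Acot12-/- kidneys. The second of them uses the Acot12-/- CL libraries on which members were chosen. Of the 38 members, 16 (42.1%) were higher in UUO than in CL kidneys at an adjusted p under 0.05 and 0 were lower. Over all 13243 genes, 31.3% were called higher and 32.1% lower. The members' median was 0.41 and that of all genes 0.00. Scaling every library to the same total raised the median of all genes by 0.54, and 33 members were then called higher, beside 59.9% of all genes. Relative to that shift the members' median was 0.35. The members whose genotype difference chose them carry it into the residual spread of this fit.

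Most of the transcription factors and of the peptide and lipid receptors were among the called genes. Ramp2 rose most reliably, from 15.1, 21.4 and 18.1 FPKM in WT CL to 34.6, 34.0 and 35.9 FPKM in WT UUO, and from 11, 9.32 and 16.4 FPKM in Acot12-/- CL to 35.9, 36.5 and 35.2 FPKM in Acot12-/- UUO. No CL library reached any UUO library, and the log2 difference was 1.21 ± 0.15 (SE, adjusted p = 1.36e-05, limma). Ets1 rose in every pair of kidneys, to 12.5, 12.1 and 15.3 FPKM in WT UUO and 12.2, 16.6 and 10.9 FPKM in Acot12-/- UUO, a log2 difference of 1.30 ± 0.23 (SE, adjusted p = 0.00027). Aplnr rose to 6.98, 5.53 and 6.95 FPKM in WT UUO and 7.94, 8.54 and 7.26 FPKM in Acot12-/- UUO, by 1.29 ± 0.22 (SE, adjusted p = 0.000157). Sox18 rose by 1.21 ± 0.20 (SE, adjusted p = 0.000153), and it stood at 9.17, 8.08 and 8.91 FPKM in WT UUO against 12.2, 14.2 and 9.64 FPKM in Acot12-/- UUO. For these 4 genes the UUO libraries of both genotypes lay above all CL libraries. Cdh5 (0.98 ± 0.19, adjusted p = 0.000408), Fli1 (0.88 ± 0.24, adjusted p = 0.0053), Arap3 (0.82 ± 0.21, adjusted p = 0.00365), Pecam1 (0.80 ± 0.23, adjusted p = 0.00747) and S1pr1 (0.64 ± 0.17, adjusted p = 0.0056) were called higher as well. These are means over genotypes: Pecam1 differed by 0.15 in WT, with 2 of 3 pairs higher, and by 1.44 in Acot12-/- kidneys. The 9 genes named so far kept their call under every alternative and with every single library left out. Tie1, Nos3 and Rasip1 lost it only when the GC trend was removed. Cldn5, Plvap, Sox7 and Calcrl lost it under several alternatives that left out 1 library.

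Of the 6 growth factor receptors only Tie1 was called higher. With the GC trend removed only Nrp1 was called (0.44, adjusted p = 0.0452, limma) and not Tie1, and with equal library totals 4 were called, Tie1, Nrp1, Ptprb and Flt1. No test between the receptors and the other groups was made. Kdr differed by -0.32 ± 0.20 (SE, adjusted p = 0.19, limma), Flt1 by -0.02 ± 0.17 (adjusted p = 0.942) and Tek by -0.19 ± 0.25 (adjusted p = 0.52). The median of the 6 receptors was 0.01. In the peptide group 5 of 6 tested genes and in the transcription factor group 4 of 6 were called higher. In the surface group 4 of 12 and among the GTPase regulators, scaffolds and the lipid carrier 2 of 8 were called. Over all genes 31.3% were called higher, a share near that of these last 2 groups. It was 35.1% with the GC trend removed and 59.9% with equal library totals.

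The mean over genotypes joined differences of unlike size, which are given side by side as a description because their contrast supplied members. In WT kidneys the median UUO minus CL difference of the 38 members was -0.17, with 14 positive, and in Acot12-/- kidneys it was 0.99, with 38 positive. By pairs of kidneys with the same replicate number, 16 of 39 members were lower after UUO in all 3 WT pairs and 11 were higher in all 3, while 34 of 39 were higher in all 3 Acot12-/- pairs and 0 lower in all 3. All WT pairs lower and all Acot12-/- pairs higher was the pattern of 13 members, and of 1.12% of all tested genes. The median difference of the 2 effects was 1.23, and 1.16 without Acot12-/- CL replicate 2. Ets1, Ramp2, Aplnr, Sox18 and Cdh5 went up in both genotypes. Emcn, Icam2, Fabp4, Shank3, Ushbp1, Arhgef15 and Tmem204 went down in all WT pairs and up in all Acot12-/- pairs. Both effects use the CL libraries in which the genotypes stood apart.

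**Figure D4:**
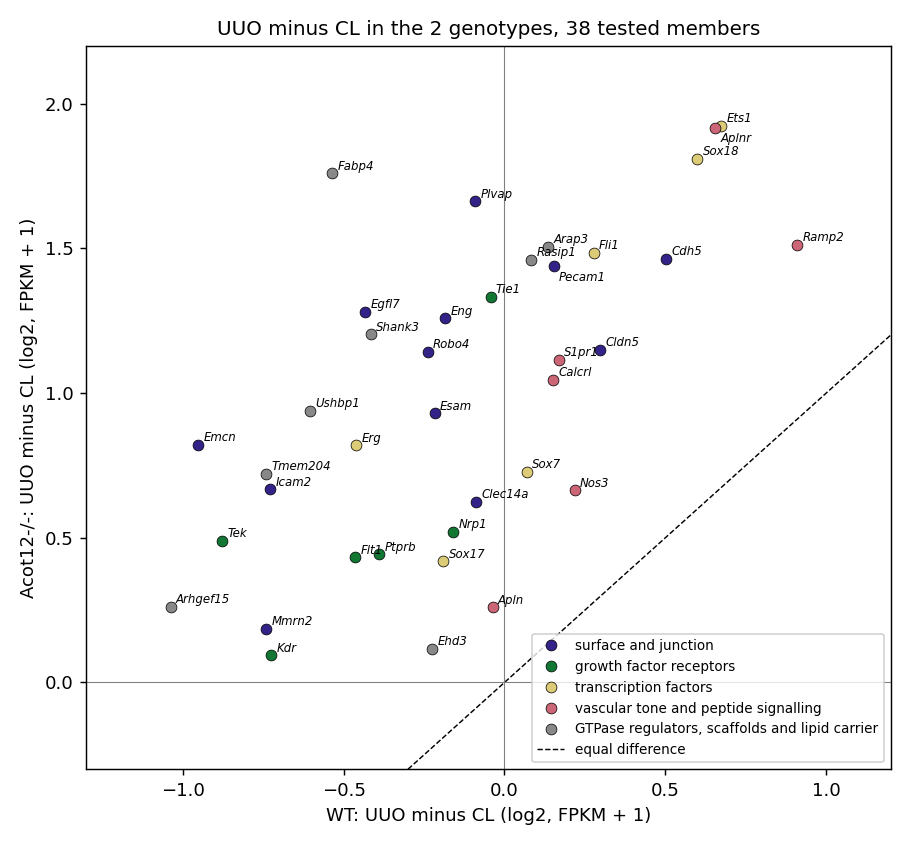
UUO minus CL difference of the 38 tested members in WT kidneys (horizontal axis) and in Acot12-/- kidneys (vertical axis), both as log2(FPKM + 1), coloured by role. All 38 points lie above the dashed line of equal difference, a position the choice of members used, and 14 of 38 are right of 0 in WT kidneys against 38 of 38 above 0 in Acot12-/- kidneys.

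Within the obstructed kidneys no member was called between genotypes. The UUO libraries do not enter the CL contrast, but they do enter the interaction that supplied some of the members, so the direction of the values below is not independent of the choice of genes. By limma 0 of 38 members were called, and 2 had an unadjusted p under 0.05. Of all genes 0.0151% were called and 2.36% had an unadjusted p under 0.05. The median log2 difference was 0.16, with 33 of 38 positive, and it was 0.01 with 20 positive when libraries were scaled to the same total, where the median of all genes was -0.15. The genes under the unadjusted threshold were Sox18, with a difference of 0.41, and Arhgef15, with 0.34 (adjusted p = 1 for both, limma). In 11 of 38 members the UUO groups did not overlap, against 12% of all genes. Of those 11, 10 were higher in the Acot12-/- UUO kidneys and 1 was lower. Ehd3 was the lower one, at 4.37, 3.80 and 4.43 FPKM against 4.84, 5.09 and 5.45 FPKM, and Tie1 was among the higher ones, at 9.58, 10.5 and 10.1 FPKM against 7.82, 7.11 and 8.98 FPKM. In simulated data of the same size only larger steps were recovered, 0% of differences of 0.5 and 60% of differences of 1 on the log2 scale. The simulation used the residual spread over all 4 groups, the CL libraries included.

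Markers of endothelial subtypes had CL differences of different size, from a median of -1.27 for 4 peritubular capillary genes to -0.15 for 2 venous genes. The 2 tested lymphatic genes had a median of -1.21. Of the members 6 belong to the subtype lists. Plvap and Aplnr are in the capillary list, Ehd3 in the glomerular, Sox17 and Cldn5 in the arterial and Vwf, untested, in the venous list. This contrast chose the members, so the order of the lists is not independent of that choice. The lists are short, and no test between them was made. The 4 peritubular capillary genes had a median CL difference of -1.27 (-1.23 without replicate 2). Igfbp3, a binding protein of insulin-like growth factors that is no member, was at 78.7, 69.0 and 151 FPKM in WT CL and at 22.5, 34.9 and 26.8 FPKM in Acot12-/- CL, and it was called lower by 1.72 on the log2 scale (adjusted p = 0.0104, limma). Npr3, the fourth capillary gene, was at 2.70, 1.66 and 3.06 FPKM against 1.51, 2.80 and 1.10 FPKM, and overlapped. The 4 tested glomerular genes had a median of -0.33 (-0.27 without replicate 2). Plat, tissue plasminogen activator, which glomerular endothelium makes strongly, was at 12.5, 16.4 and 10.8 FPKM in WT CL and at 12.2, 19.4 and 17.9 FPKM in Acot12-/- CL. Its CL difference was 0.29 (adjusted p = 0.574, limma) and the other 3 glomerular genes had negative values. Without replicate 2 it was 0.17, and that of Pi16 was then positive too, 0.16. Nostrin was at 5.73, 3.90 and 3.75 FPKM against 1.36, 3.69 and 1.68 FPKM, without overlap. Gata5 and Sost were at 0.235 FPKM or less in every library and were not tested. Igfbp3 kept its call with every single library left out, and its adjusted p was 0.0761 with only the CL libraries in the model.

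Arterial genes had a median CL difference of -0.33 (-0.34 without replicate 2) over 6 tested genes. Gja5, the connexin of arterial endothelium and renin cells, was at 1.78, 1.61 and 1.02 FPKM in WT CL and at 0.95, 1.25 and 1.68 FPKM in Acot12-/- CL, with full overlap. Gja4, another arterial connexin, was at 2.67, 2.51 and 2.44 FPKM against 1.84, 1.31 and 2.29 FPKM and did not overlap. Fbln5, an elastic fibre protein that other wall cells also make, was the arterial gene with the largest difference, -1.20 (adjusted p = 0.0421, limma), at 21.4, 19.3 and 32.9 FPKM against 7.04, 15.8 and 8.48 FPKM. Of the tested venous genes, Nr2f2, a factor of venous identity that other cells also express, had a difference of -0.08, and of -0.40 without replicate 2, where its CL groups did not overlap and the Acot12-/- CL mean was 75.6% of WT CL. Ephb4, the venous ephrin receptor, had a difference of -0.21, and of 0.05 without replicate 2. Of the lymphatic genes, Ccl21a was at 16.3, 14.7 and 18.3 FPKM in WT CL and 1.56, 4.78 and 8.96 FPKM in Acot12-/- CL (-1.72, adjusted p = 0.0337, limma). Flt4 (VEGF receptor 3, present on lymphatic and fenestrated endothelium) was at 1.54, 1.51 and 2.07 FPKM against 0.55, 0.65 and 0.80 FPKM (-0.70, adjusted p = 0.0377, limma). Lyve1 and Prox1, which define lymphatic endothelium, were under 1 FPKM in all libraries. The calls of Fbln5, Ccl21a and Flt4 were lost without any single WT CL replicate (adjusted p from 0.069 to 0.15) and without Acot12-/- CL replicate 1 (0.0906 to 0.157). They were also lost with only the CL libraries in the model (0.105 to 0.159) and with no filter on low values (0.054 to 0.0707). Those of Fbln5 and Flt4 were lost with equal library totals (0.0554 and 0.157), that of Flt4 with the GC trend removed (0.0903), and each was lost without some of the other libraries.

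Endothelial genes outside the set were lower in the Acot12-/- CL kidneys too. Of 18 such genes 17 were found and 15 tested. All 15 differences were negative, with a median of -0.80 (-0.93 without replicate 2). By limma 9 of the 15 were called lower and 0 higher, against 3.36% called lower over all genes. The same contrast in the same libraries chose the members, and this list was drawn up with earlier results of these data known. These calls are therefore not independent support for the difference of the members. Stab1, a scavenger receptor of sinusoidal endothelium and macrophages, was at 3.08, 3.21 and 2.72 FPKM in WT CL and at 0.83, 0.94 and 1.14 FPKM in Acot12-/- CL, a log2 difference of -1.02 (adjusted p = 0.00275). Ecscr, an endothelial cell surface regulator of migration, had the largest difference, -1.29 (adjusted p = 0.0263), at 12.3, 15.2 and 13.5 FPKM against 2.43, 6.57 and 7.24 FPKM. Without replicate 2 those of Adgrl4 (-1.62) and Gimap6 (-1.49) were larger than that of Ecscr (-1.46). Hhex, a homeobox factor of early endothelium, had the smallest, -0.36 (adjusted p = 0.255), at 1.11, 1.37 and 1.48 FPKM against 0.82, 0.71 and 0.88 FPKM. None of these 3 overlapped. Stab1 kept its call with each library left out, and Ecscr lost it without WT CL replicate 1, 2 or 3 (adjusted p 0.0717, 0.09 and 0.0778). The count depended on the libraries in the fit. It was 4, 5 and 3 without WT CL replicates 1, 2 and 3, 4 without Acot12-/- CL replicate 1 and 13 without Acot12-/- CL replicate 2. The share of all genes called lower moved with it, to 1.22%, 1.66%, 1.51%, 1.22% and 10.4%. With only the 6 CL libraries in the model 0 of the 15 and 1 of all 13243 genes were called, while 14 of the 15 and 11.9% of all genes had an unadjusted p under 0.05.

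Markers of several other cell types moved in the same direction as the endothelial genes in the CL kidneys. Of the fibroblast genes all 8 were lower, with a median log2 difference of -0.94, and their summed level was 130 to 164 FPKM in WT CL and 37.0 to 103 FPKM in Acot12-/- CL. Macrophage genes were lower in 7 of 8 (median -0.65), with sums of 109 to 124 FPKM against 41.1 to 87.2 FPKM. Smooth muscle genes were lower in 6 of 6 (median -0.72), with sums of 79.1 to 96.8 FPKM against 34.5 to 50.8 FPKM. Pericyte and mesangial genes were lower in 6 of 8 (median -0.49), with sums of 37.1 to 43.1 FPKM against 24.7 to 31.1 FPKM. For these 4 lists the sums of the CL groups did not overlap. Without Acot12-/- CL replicate 2 the medians were -1.17 for the fibroblast and -0.95 for the macrophage list. They were then -0.60 for smooth muscle and -0.51 for pericyte and mesangial genes, beside -0.98 for the members. By limma 2 genes of each of these lists were called lower, out of 8, 8, 6 and 8 tested, and 0 higher, beside the 3.36% of all genes called lower. Lymphocyte genes were lower in 5 of 5 tested (median -0.75, and -0.83 without replicate 2), 3 of them called. Platelet and red cell genes were lower in 5 of 5 tested (median -1.07), 1 of them called. Without replicate 2 those genes were lower in 4 of 5 (median -0.83). Their sum ran from 74.4 to 656 FPKM in WT CL and from 7.84 to 86.0 FPKM in Acot12-/- CL, mostly from Hba-a1, the alpha globin of red cells.

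Podocyte genes, from the epithelium that covers the glomerular capillaries, were lower in 1 of 10 (median 0.18) and, without replicate 2, in 5 of 10 (median 0.05), with sums of 114 to 151 FPKM in WT CL and 135 to 195 FPKM in Acot12-/- CL. Proximal tubule genes were higher in 10 of 10 (median 0.58, and 0.73 without replicate 2), and 0 of 10 were called by limma. Their sums were 4107 to 5417 FPKM in WT CL and 5188 to 8273 FPKM in Acot12-/- CL. Distal tubule and collecting duct genes were lower in 7 of 10 (median -0.19), 1 of them called, and in 5 of 10 without replicate 2 (median -0.06). The interstitial, wall and blood cell lists moved in the same direction as the endothelial genes, and the proximal tubule list moved in the opposite direction. The part of these lists in the endothelial result was not tested. After UUO the sums of the fibroblast genes were 327 to 475 FPKM in WT and 323 to 464 FPKM in Acot12-/- kidneys and overlapped, as those of the members did at 597 to 646 FPKM and 640 to 838 FPKM.

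**Figure D5:**
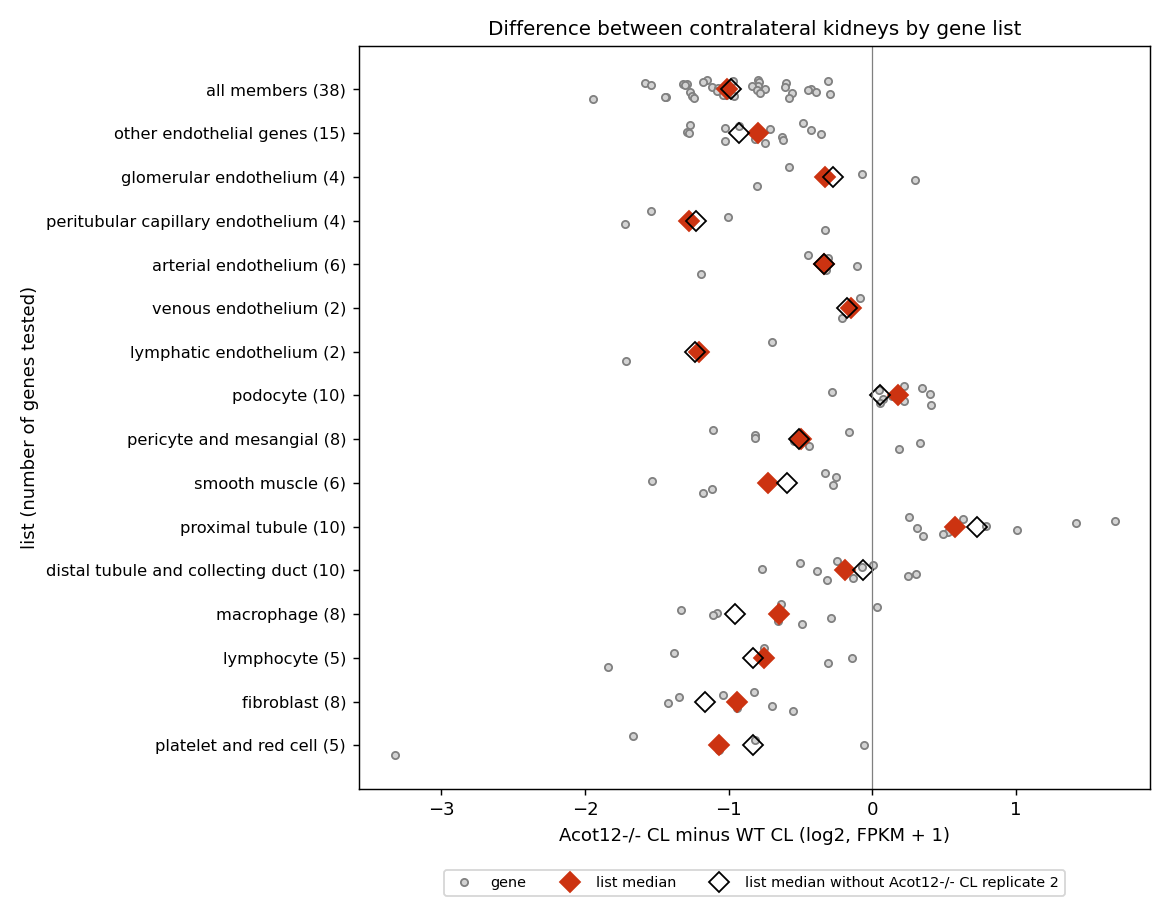
Difference between the CL kidneys (horizontal axis, Acot12-/- minus WT, log2(FPKM + 1)) for the genes of 16 lists (vertical axis, number tested in brackets). Grey points are genes, filled diamonds list medians and open diamonds medians without Acot12-/- CL replicate 2. The members (-1.01) and the fibroblast list (-0.94) lie left of 0, and the podocyte (0.18) and proximal tubule (0.58) lists lie right of it.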

How the data were processed

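Total RNA of mouse kidney cortex was made into directional libraries and sequenced by the authors, whose reads were trimmed, mapped and normalized at a sequencing company. The submitters' processing notes name the mm10 build and edgeR, and the aligner is not given in the sources used here. The values the authors deposited are FPKM, 1 table per library. The unit was derived from the steps of the low values, which also gave the depth term (12420000 to 23020000 fragments) and a fragment length term. Whether the depth term was scaled between libraries is not stated. FPKM are not counts, so no count model was fitted and counting error enters only through the spread between libraries.

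The members and all gene lists were chosen with earlier results of these data known. All members were named by role, and other endothelial genes where they define a subtype or have the largest or smallest CL difference of their list. Genes of other cell types were given as lists. Genes listed at 0 beside 10 FPKM or more in the same group (58) were left out, and genes with at least 1 FPKM in at least 3 libraries were kept. R 4.3.3 with limma 3.58.1 fitted log2(FPKM + 1) with a variance trend, with all 4 groups in 1 model or, for UUO against CL, with additive terms. A pseudocount of 1 understates the change of low genes. P-values were adjusted by Benjamini-Hochberg over 13243 genes and called under 0.05. The labels number 3 libraries a group without naming animals, so p-values measure the spread between these libraries.

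Same-numbered CL and UUO libraries deviated together in both genotypes (r of residuals 0.13, 0.36 and 0.33 in WT, highest other 0.14; 0.32, 0.19 and 0.32 in Acot12-/-, highest other -0.07), so the numbers were taken to pair the kidneys. The labels do not give this pairing, and the value of WT replicate 1 (0.13) was under the highest other value (0.14). The counts by pairs of kidneys rest on this assumption. Gene positions, lengths and GC content came from GENCODE vM21 (GRCm38), and promoters from RefSeq. The fits were tested on simulated data. Alternatives were a pseudocount of 0.1, no filter, other scalings, the zero-value genes kept, no variance trend, the replicate block, only the groups compared, each library left out and, added after seeing the data, the GC trend of each library removed. No batch is named in the labels.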

Additional observations from a re-analysis of the deposited data

Results flagged for a closer look

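For 13 members all 3 WT pairs were lower after UUO and all 3 Acot12-/- pairs higher, so that the groups moved in opposite directions. Over all 13243 genes, 1.12% had this pattern. The contrast supplied members, so the difference was not tested here. As the difference of the UUO effects between genotypes (log2), it was 2.30 for Fabp4, 1.77 for Emcn, 1.72 for Egfl7, 1.62 for Shank3, 1.54 for Ushbp1, 1.46 for Tmem204, 1.44 for Eng, 1.40 for Icam2, 1.30 for Arhgef15, 1.28 for Erg, 1.15 for Esam, 0.90 for Flt1 and 0.83 for Ptprb. Acot12-/- CL replicate 2, whose deviation runs with transcript GC, is 1 of the 3 Acot12-/- CL libraries behind each value. Without it the values of these 13 genes ran from 1.02 for Flt1 to 2.54 for Fabp4, with 2.04 for Emcn, 1.13 for Eng and 1.14 for Icam2, and the median over all 38 tested members was 1.16 in place of 1.23.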

How the results depend on the processing

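With library totals made equal, 33 members were called in UUO against CL in place of 16, beside 59.9% of all genes called higher, and 5 of the other endothelial genes in the CL kidneys in place of 9, beside 2.01% of all genes called lower. With only the groups compared, 0 of the latter were called. A pseudocount of 0.1 moved the members' median CL difference from -1.01 to -1.26. Leaving out 1 library gave 12 to 18 members called in UUO against CL, beside 29.2% to 33.6% of all genes called higher. In Acot12-/- UUO against WT UUO 0 members were then called, beside 0% to 0.0151% of all genes. The median CL difference was -1.07 to -0.84 and the median interaction difference 1.09 to 1.29. Of the other endothelial genes 3 to 13 were called, beside 1.22% to 10.4% of all genes called lower in that contrast. The replicate block gave 16 members called in UUO against CL and 0 between the UUO groups, the same counts as without the block. With it 32.4% of all genes were called higher in UUO against CL. For the interaction 14 of all genes were called without the block and 203 with it. Calls of members are not given for that contrast, since it chose some of them.

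The UUO against CL difference of 12 members changed sign. Equal totals raised the median of all genes by 0.54, and of the 9 members that changed sign there only Emcn and Tmem204 lay above it. The difference was 0.54 for Icam2, 0.29 for Mmrn2, 0.56 for Emcn, 0.13 for Kdr, 0.46 for Flt1, 0.35 for Tek, 0.069 for Arhgef15, 0.56 for Tmem204 and 0.47 for Ehd3. With a pseudocount of 0.1 it was 0.00856 for Flt1 and 0.00608 for Tmem204, and with the GC trend removed it was 0.20 for Emcn, 0.0113 for Flt1 and -0.10 for Shank3. Leaving out 1 library gave -0.22 to 0.12 for Icam2, -0.30 to 0.13 for Emcn, -0.121 to 0.0887 for Flt1, -0.0301 to 0.292 for Nrp1, -0.0815 to 0.113 for Ptprb, -0.126 to 0.141 for Tmem204 and -0.113 to 0.0279 for Ehd3. With the GC trend removed, 6 calls (Cldn5, Plvap, Tie1, Sox7, Nos3, Rasip1) were lost and 4 (Clec14a, Nrp1, Fabp4 and, lower, Arhgef15) gained. Without Acot12-/- CL replicate 1 Mmrn2 was called lower. The cause of these changes was not tested. Depth limits low members, with about 8 fragments behind the lowest Sox7 value and 16 behind that of Vwf.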
